A study of Mus musculus with 47 samples.

Results

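Olfactory epithelium of mice at postnatal day 5 (P5) was compared between 3 libraries of the Kir2.1 line and 3 wild-type libraries, 6 of the 47 libraries in the series. The members are all P5 libraries, and the comparison runs over all 54532 genes of the deposited tables. The tested animals carry the strain label OIVT;Kir2.1 (Kir below) and the controls the strain label C57BL/6J (WT). The labels do not spell out OIVT, the promoter or cell type that drives the channel, the number of animals per library, or whether the WT mice carry any of the other alleles, so Kir and WT may differ in more than the channel. The other 41 libraries cover both genotypes at 6 other ages between P0 and P21. Each P5 title carries its own number, but the labels do not say whether it stands for an animal. The p-values therefore speak only of variation among these libraries, some of which may be technical.

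The olfactory epithelium holds olfactory sensory neurons, which are renewed from basal progenitor cells, together with supporting and gland cells. A mature sensory neuron expresses 1 odorant receptor gene and signals through a cyclic AMP cascade made of the G protein subunit Gnal, the adenylyl cyclase Adcy3 and a cyclic nucleotide-gated channel. Kir2.1, the product of Kcnj2, is an inward-rectifier potassium channel that holds a membrane near the potassium equilibrium potential, and its overexpression is a common way to lower the electrical activity of neurons. Several genes of these neurons, among them S100a5 and Kirrel2, are known for levels that follow neuronal activity.

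The 6 libraries held 25597131 to 28485308 gene counts each, and each had a count for 1067 to 1086 of the 1107 odorant receptor symbols. In this text a gene is called at an adjusted p below 0.05 in edgeR's quasi-likelihood test (Benjamini-Hochberg adjustment over all genes tested), and levels are CPM, read counts scaled by the effective library size and not corrected for gene length. The main test took its estimate of the spread from all 47 libraries, and a second fit used the 6 P5 libraries alone. Xist was high in replicates 1 and 2 of each genotype and Ddx3y in replicate 3 of each, so the sexes were balanced between the genotypes. Nnt, a gene known to be disrupted in C57BL/6J, was at or below 0.357 CPM in the 3 Kir libraries and 0.305 CPM in the 3 WT libraries. WT replicate 2 stood apart in vomeronasal receptors, whose summed TPM (a level scaled by both library and transcript length) was 114.3 there, against 5.1 to 7.16 in the Kir libraries and 6.21 and 7.57 in the other WT libraries.

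At P5 the Kir libraries had a far higher level of Kcnj2, and lower levels of 17 genes, among them 6 odorant receptors, S100a5, Kirrel2, Nphs1, Kcng1 and Kcnmb3. Of 19927 genes tested in the 47-library fit, 21 were called (0.105%), 4 higher in Kir (0.0201%) and 17 lower (0.0853%). In the fit of the 6 P5 libraries alone 160 of 18650 genes passed (0.858%), 22 of them higher in Kir (0.118%) and 138 lower in Kir (0.74%). In 10 of the 22 and 35 of the 138 the difference was at least 2-fold. Both fits shared 20 of these calls. At an unadjusted p below 0.05 the 47-library fit had 403 genes higher (2.02%) and 724 lower (3.63%), and the 6-library fit 1080 higher (5.79%) and 1348 lower (7.23%). Among the genes of the 6-library fit, 7.47% had all Kir libraries above all WT libraries and 9.16% had all Kir libraries below. Of the 160 genes, 159 were tested in both fits and all 159 had the same sign. The calls of the larger fit fell to between 7 and 11 when any 1 of the 6 libraries was left out, and those of the 6-library fit ran from 55 to 179.

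**Figure D1:**
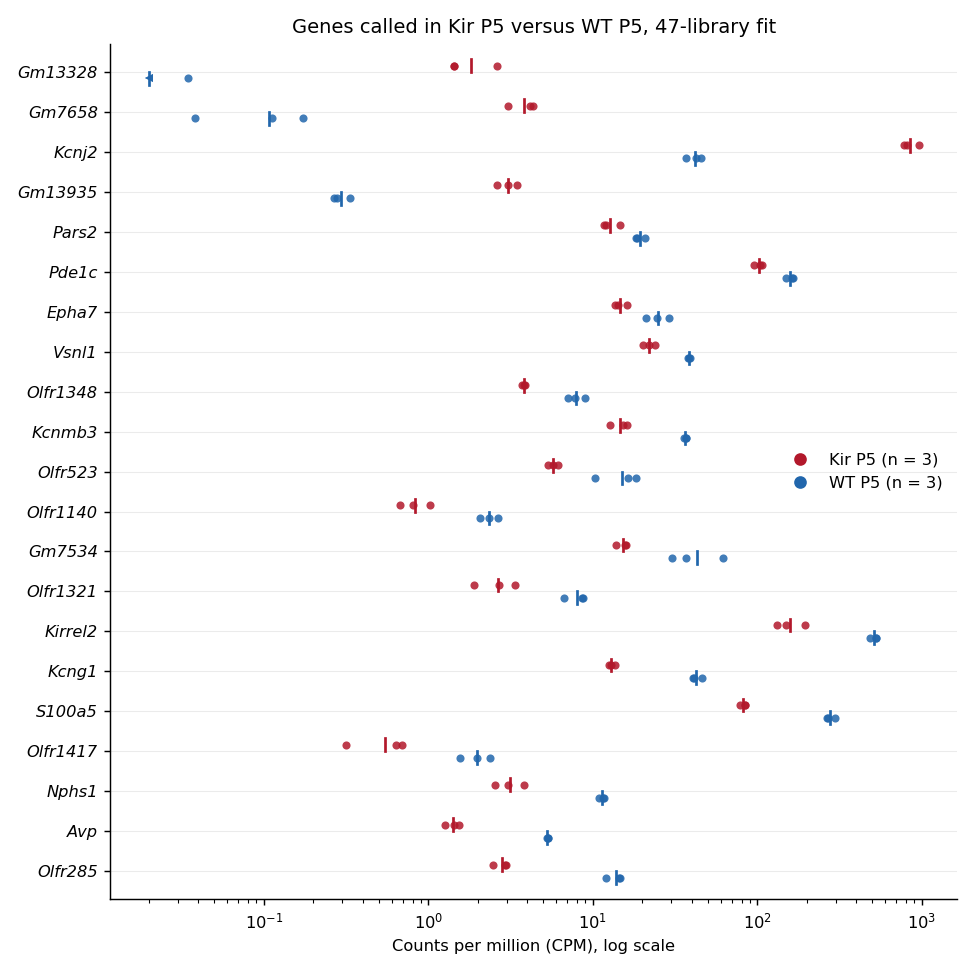
CPM (log scale) of each of the 21 genes called in the 47-library fit, with 1 point per P5 library (Kir red, above; WT blue, below) and a bar at the group mean; a triangle at the left marks a library with no count. The 3 Kir and 3 WT libraries did not overlap for any of these genes, and Kcnj2 stood at 778 to 959 CPM in Kir and 36.8 to 45.5 CPM in WT.

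Kcnj2 (ENSMUSG00000041695, chromosome 11, 111066164 to 111076821, GRCm38) had 812, 778 and 959 CPM in the 3 Kir libraries, against 42.4, 36.8 and 45.5 CPM in the 3 WT libraries. All 3 Kir libraries were thus far above WT and close to each other. The Kir libraries ran from 439 to 639 CPM at P0, 132 to 959 at P3, 146 to 1140 at P7, 847 to 1151 at P10, 1387 to 1648 at P14 and 209 to 1050 at P21, and the P5 difference minus the mean of the other ages was 0.85 ± 0.52 on the log2 scale (edgeR adjusted p = 1). The log2 fold change at P5 was 4.35 ± 0.56 (SE; 20.4-fold, edgeR adjusted p = 5.77e-05), and it was called with any library left out and in every alternative tried. Counts per gene cannot separate reads of a transgene from those of the endogenous gene. No other of the 12 inward-rectifier genes tested was called.

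S100a5, an EF-hand calcium-binding protein of olfactory sensory neurons (chromosome 3, 90608523 to 90611780), had 84.2, 77.9 and 84.3 CPM in Kir and 265, 270 and 298 CPM in WT. The Kir libraries lay within a narrow band below every WT library. This is 3.38-fold lower, or -1.76 ± 0.28 on the log2 scale (edgeR adjusted p = 0.0016), and it was called in every alternative.

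Kirrel2, an immunoglobulin-family adhesion protein of sensory axons (chromosome 7, 30447534 to 30457690, minus strand), had 149, 132 and 195 CPM in Kir and 483, 529 and 523 CPM in WT. This is 3.23-fold lower, or -1.69 ± 0.35 on the log2 scale (edgeR adjusted p = 0.0327). In the 47-library fit the call was lost when any 1 of the 6 libraries was left out (edgeR adjusted p 0.091 to 0.308), and in the 6-library fit it was kept each time (edgeR adjusted p 0.000919 to 0.00902). Its neighbour Nphs1 (plus strand, 30458315 to 30487223) encodes nephrin, an immunoglobulin-family protein known to bind Kirrel proteins at the kidney filter. Nphs1 had 3.06, 2.53 and 3.81 CPM in Kir and 10.9, 11.5 and 11.6 CPM in WT, a log2 fold change of -1.86 ± 0.32 (edgeR adjusted p = 0.00351; 0.0765 without Kir replicate 2 and 0.055 without the term for the title prefix). By limma on TPM it was not called in any of 4 settings (adjusted p 0.0904 to 0.992). Both genes start next to each other, run in opposite directions and do not overlap in the annotation.

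The windows before the starts of these 3 genes are shown because the genes fell together and are the ones most tied to activity. They are the 250 bases before the RefSeq start (GRCm38.p6), read along the gene; S100a5 is at chr3:90608272-90608521 (plus), Kirrel2 at chr7:30457516-30457765 (minus) and Nphs1 at chr7:30459808-30460057 (plus). The RefSeq starts of Kirrel2 and Nphs1 lie inside the spans given above, which follow GENCODE. Part of the Kirrel2 window and all of the Nphs1 window therefore lie within those spans.
S100a5: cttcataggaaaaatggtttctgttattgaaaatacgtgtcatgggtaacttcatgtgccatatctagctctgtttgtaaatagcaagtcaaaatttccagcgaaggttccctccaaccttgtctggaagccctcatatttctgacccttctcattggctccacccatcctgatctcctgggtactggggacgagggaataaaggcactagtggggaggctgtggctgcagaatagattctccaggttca
Kirrel2: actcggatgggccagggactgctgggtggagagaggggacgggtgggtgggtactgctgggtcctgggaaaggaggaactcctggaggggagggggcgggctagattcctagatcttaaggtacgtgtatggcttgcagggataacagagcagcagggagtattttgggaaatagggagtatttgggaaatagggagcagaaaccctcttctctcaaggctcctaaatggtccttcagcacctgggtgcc
Nphs1: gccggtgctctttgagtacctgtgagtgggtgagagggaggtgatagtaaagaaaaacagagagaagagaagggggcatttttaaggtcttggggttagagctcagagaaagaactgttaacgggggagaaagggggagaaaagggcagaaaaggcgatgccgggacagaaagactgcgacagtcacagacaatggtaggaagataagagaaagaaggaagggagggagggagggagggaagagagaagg
None of the 3 windows held the cyclic AMP response element TGACGTCA, the EBF motif (TCCC and GGGA with 2 bases between) or the interferon response core (GAAA and GAAA with 2 bases between) on either strand, so no letters are in capitals. Over windows that add the 50 bases after the start, TGACGTCA was found for 4 of 104 genes called lower in the 6-library fit (3.85%) and for 428 of 13898 tested genes with a window (3.08%). The EBF motif was found for 3 of the 104 (2.88%) and for 182 of the 13898 (1.31%).

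The list of 14 genes reported as linked to activity in sensory neurons had 3 members called lower in the 47-library fit (S100a5, Kirrel2 and Nphs1; 0.0853% of all genes were called lower) and 0 higher. In the 6-library fit Epha5, an ephrin-A receptor, was also lower, at 20.0, 21.7 and 18.0 CPM in Kir and 40.3, 33.4 and 41.5 CPM in WT (log2 fold change -0.95 ± 0.11, edgeR adjusted p = 0.00715; 0.0508 in the 47-library fit). The list's median log2 fold change was -0.43, against 0.00 over all genes tested. Like the other lists, it was chosen with earlier results of these data known, so its shares are description and no test of enrichment. In 9 of the 14 every Kir library lay below every WT library, against 8.84% of all genes, and 5 of these 9 were not called in either fit. Cntn4, an adhesion protein, was one of them, at 428, 366 and 428 CPM in Kir and 562, 524 and 511 CPM in WT. Kirrel3 had 59.4, 58.0 and 69.9 CPM in Kir and 59.1, 53 and 64.9 CPM in WT, and Efna5 had 61.1, 60.8 and 61.6 CPM in Kir and 59.1, 52.5 and 59.4 CPM in WT; neither was called, and the Kir libraries lay above the WT libraries for Efna5 and overlapped them for Kirrel3. The 20 immediate early genes, which many cells switch on after stimulation, had 0 calls in either fit and a median log2 fold change of 0.03. Egr1, a zinc-finger factor of that list, had 45.9, 33.9 and 33.7 CPM in Kir and 14.8, 17.5 and 31.1 CPM in WT (edgeR adjusted p = 0.923).

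The remaining calls of the 47-library fit include 2 proteins that respond to calcium, an axon guidance receptor and a peptide precursor. Vsnl1, a calcium sensor of the visinin family, had 22, 20.1 and 23.7 CPM in Kir and 38.6, 37.9 and 39.0 CPM in WT (log2 fold change -0.81 ± 0.18, edgeR adjusted p = 0.0456). Pde1c, the calmodulin-dependent phosphodiesterase of olfactory cilia, had 104, 94.8 and 107 CPM in Kir and 164, 149 and 163 CPM in WT (-0.64 ± 0.14, edgeR adjusted p = 0.0456). Both lost the call in the 47-library fit without any 1 of the libraries and kept it in the 6-library fit. Epha7, another ephrin-A receptor, had 14.2, 16.2 and 13.6 CPM in Kir and 29.0, 24.6 and 21.1 CPM in WT (-0.77 ± 0.15, edgeR adjusted p = 0.0229). It kept the call in 1 of 6 fits of each kind with a library left out (edgeR adjusted p up to 0.235 and 0.171). Avp, which encodes the vasopressin precursor, was low in both groups, at 1.53, 1.44 and 1.27 CPM in Kir and 5.25, 5.32 and 5.30 CPM in WT (-1.90 ± 0.37, edgeR adjusted p = 0.0163). In the 47-library fit Avp lost the call without any 1 of the libraries (edgeR adjusted p 0.0628 to 0.156) and without the prefix term (0.055), and in the 6-library fit it kept it. Pars2, a mitochondrial prolyl-tRNA synthetase, was the gene called in the 47-library fit alone (-0.59 ± 0.12, edgeR adjusted p = 0.0327; 0.0665 in the 6-library fit), and it kept the call in 1 of 6 fits with a library left out. Gm7534 was lower too (-1.51 ± 0.26, edgeR adjusted p = 0.0035), with 15.9, 13.9 and 15.7 CPM in Kir and 36.8, 62.1 and 30.4 CPM in WT. Its highest value was in WT replicate 2, the library with vomeronasal receptors, and without that library the adjusted p was 0.102.

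Genes called in the 6-library fit alone fall outside the rule by which the other genes were named; those given here were chosen after their values were seen. Rasgrp4, an exchange factor that activates Ras, had 6.85, 6.07 and 5.75 CPM in Kir and 22.8, 20.7 and 21.9 CPM in WT (log2 fold change -1.81 ± 0.12, edgeR adjusted p = 0.000284). Bmp6, a secreted bone morphogenetic protein, had 30.1, 32.3 and 35.1 CPM in Kir and 65.6, 55.9 and 64.8 CPM in WT (-0.94 ± 0.08, edgeR adjusted p = 0.0016). Nptx2, a secreted pentraxin known from brain synapses to follow activity, had 38.7, 39.3 and 49.9 CPM in Kir and 83.6, 75.8 and 95.0 CPM in WT (-0.99 ± 0.11, edgeR adjusted p = 0.00523). Slc8a1, a sodium-calcium exchanger, had 17.3, 18.9 and 19.4 CPM in Kir and 39.1, 33.4 and 40.2 CPM in WT (-1.02 ± 0.10, edgeR adjusted p = 0.0021). These 4 genes kept the call in the 6-library fit whichever library was left out, as 43 of the 160 did, and 25 of the 160 lost it each time.

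**Figure D2:**
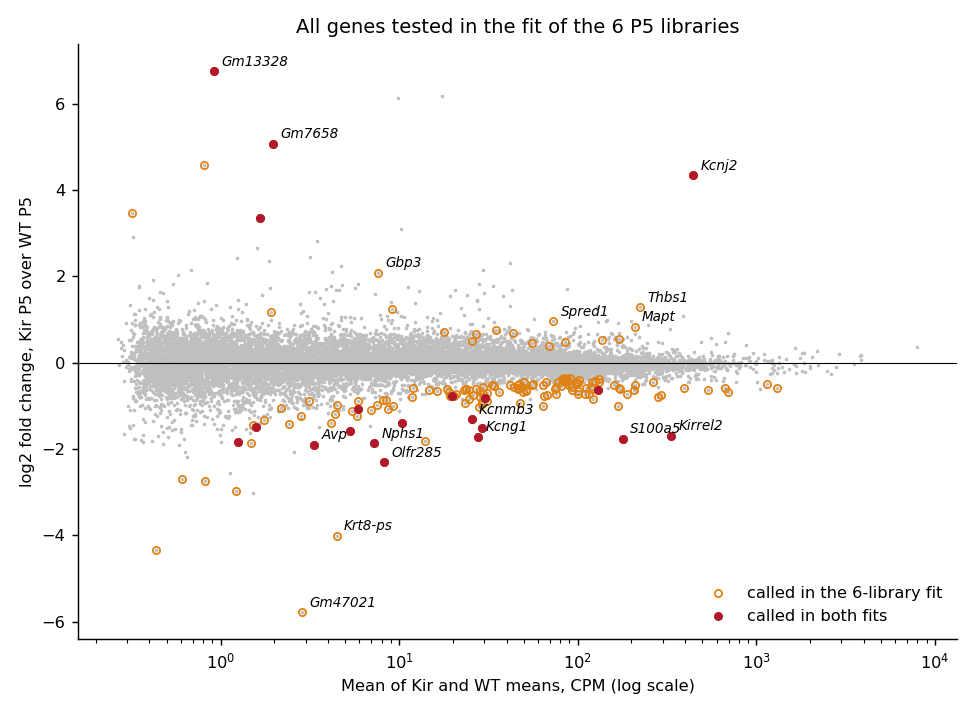
Log2 fold change of Kir P5 over WT P5 against mean CPM (log scale) for the 18650 genes of the 6-library fit; filled red points are the 20 genes called in both fits and open orange points the other 140 called in the 6-library fit. Most called genes lie below 0, and Kcnj2, Thbs1 and Mapt are among the abundant genes above 0.

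Apart from Kcnj2, the listed ion channel genes that were called at P5 were lower in Kir. Of 27 other potassium and related channel genes tested, 1 was called lower in the 47-library fit, against 0.0853% of all genes. In the 6-library fit 4 of 28 were called lower, against 0.74% of all genes, and 0 were higher in either fit. Of the 27, 15 had all Kir libraries below all WT libraries, against 8.84% of all genes. Kcnmb3, an accessory subunit of calcium-activated BK channels, had 12.6, 16 and 15.3 CPM in Kir and 36.6, 35.8 and 36.7 CPM in WT (log2 fold change -1.31 ± 0.21, edgeR adjusted p = 0.0016), and was called in every alternative. Kcng1, a modulatory subunit that forms no channel alone, was outside the list and had 12.8, 12.5 and 13.7 CPM in Kir and 41.0, 40.6 and 45.8 CPM in WT (-1.71 ± 0.33, edgeR adjusted p = 0.0178; 0.0604 to 0.148 with 1 library left out). In the 6-library fit Kcnc4 and Kcnd3 were also lower. Kcnc4, a Kv3 channel, had 134, 138 and 156 CPM in Kir and 239, 203 and 266 CPM in WT (-0.72 ± 0.11, edgeR adjusted p = 0.0191). Kcnd3, a Kv4 channel, had 1.57, 1.40 and 1.31 CPM in Kir and 3.04, 2.64 and 3.17 CPM in WT (-1.05 ± 0.18, edgeR adjusted p = 0.0399; 1 in the 47-library fit). With 1 library left out of the 6-library fit, Kcnc4 kept its call 3 of 6 times and Kcnd3 0 of 6 times (edgeR adjusted p 0.077 to 0.148).

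Of the voltage-gated sodium and calcium channel genes, 0 of 22 were called in the 47-library fit, and 2 of 21 were lower in the 6-library fit, against 0.74% of all genes. These were Scn8a, the Nav1.6 channel, at 17.9, 19.1 and 20.6 CPM in Kir and 32.2, 25.9 and 31.4 CPM in WT, and the accessory subunit Scn3b, at 107, 107 and 107 CPM in Kir and 151, 141 and 138 CPM in WT. Their log2 fold changes were -0.64 ± 0.11 and -0.42 ± 0.06 (edgeR adjusted p = 0.0344 and 0.0236), and each kept the call in 1 of 6 fits with a library left out. Scn9a, the most abundant sodium channel of the list, had 221, 189 and 199 CPM in Kir and 267, 239 and 226 CPM in WT and was not called. Scn4b, a beta subunit outside the list, had 107, 119 and 111 CPM in Kir and 243, 215 and 217 CPM in WT (-1.004 ± 0.08, edgeR adjusted p = 0.000826 in the 6-library fit and 0.185 in the 47-library fit). The median log2 fold change was -0.31 for the potassium list and -0.19 for the sodium and calcium list.

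Genes of synaptic vesicles and glutamate release were fitted below 0 for all 16 members, with a median log2 fold change of -0.45. None was called in the 47-library fit, where 7 members had an unadjusted p below 0.05, and 6 were called lower in the 6-library fit, against 0.74% of all genes. Slc17a6, the vesicular glutamate transporter of these neurons, had 85.6, 82.2 and 93.5 CPM in Kir and 170, 145 and 152 CPM in WT (-0.84 ± 0.08, edgeR adjusted p = 0.0021). The vesicle proteins Syn1 and Syn2 were lower by the same fit (-0.70 ± 0.09 and -0.66 ± 0.07), as were Syt1, the calcium sensor of release (-0.56 ± 0.07), and Snap25 (-0.46 ± 0.07). With 1 library left out, Slc17a6, Syn1 and Syn2 kept the call each time, Syt1 4 of 6 times and Snap25 3 of 6 times. Stx1a, a partner of Snap25, had 95.2, 94.3 and 132 CPM in Kir and 107, 110 and 118 CPM in WT, and these overlapped. Chgb and Scg3, cargo proteins of dense-core granules outside that list, were lower as well (-0.92 ± 0.11 and -0.68 ± 0.12), Scg3 in 1 of 6 fits with a library left out.

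**Figure D3:**
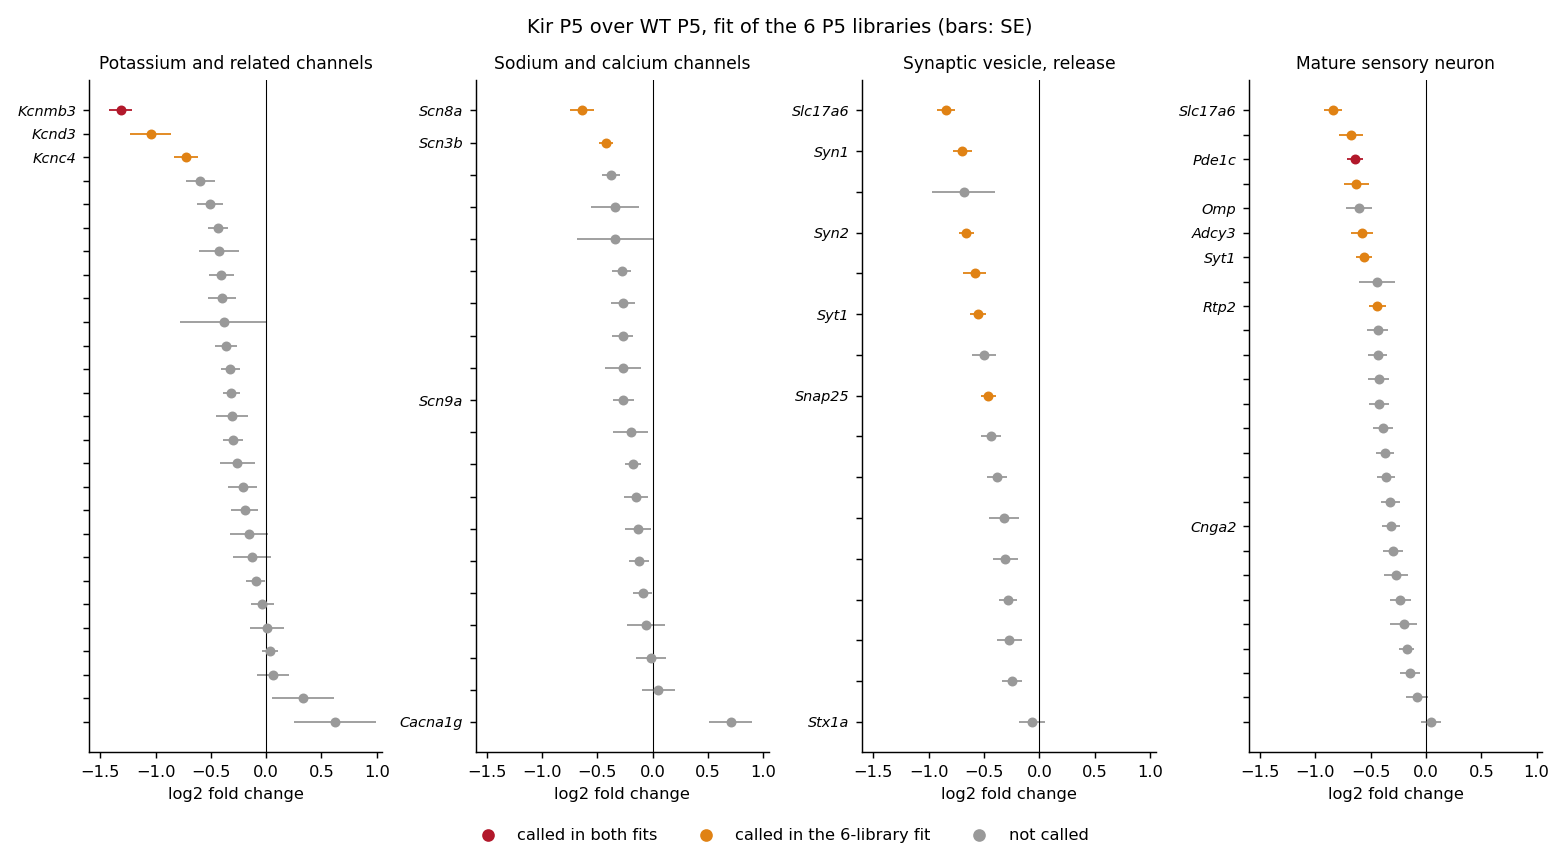
Log2 fold change (Kir P5 over WT P5, 6-library fit) with its standard error for tested members of 4 lists: potassium and related channels, sodium and calcium channels, synaptic vesicle and release genes, and mature sensory neuron genes. Red marks a call in both fits (Kcnmb3 and Pde1c), orange a call in the 6-library fit alone and grey no call; all 16 synaptic members lie below 0, and Cacna1g lies highest among the sodium and calcium channels shown. Genes named in the text are labelled, and 2 channel genes are not shown.

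Of 26 markers of mature sensory neurons 25 were fitted below 0, with a median log2 fold change of -0.41, and 19 had all Kir libraries below all WT libraries, against 8.84% of all genes. Only Pde1c was called in the 47-library fit, and 7 were called lower in the 6-library fit, against 0.74% of all genes. Omp, the olfactory marker protein, had 777, 786 and 948 CPM in Kir and 1157, 1202 and 1458 CPM in WT (-0.60 ± 0.19, edgeR adjusted p = 0.304; 0.0583 in the 6-library fit). Adcy3 had 299, 318 and 332 CPM in Kir and 475, 412 and 526 CPM in WT (-0.58 ± 0.10, edgeR adjusted p = 0.0399 in the 6-library fit). Rtp2, which carries odorant receptors to the surface, had 210, 216 and 242 CPM in Kir and 306, 302 and 298 CPM in WT (-0.44 ± 0.08, edgeR adjusted p = 0.0458 in the 6-library fit). With 1 library left out of that fit, Adcy3 lost its call each time (edgeR adjusted p 0.0571 to 0.148) and Rtp2 kept it in 1 of 6 fits; in the 47-library fit their adjusted p was 0.481 and 0.722. The channel subunit Cnga2 had 312, 310 and 344 CPM in Kir and 402, 374 and 426 CPM in WT and was not called in either fit. In whole tissue, fewer neurons and less RNA per neuron cannot be told apart.

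The earlier cells of the neuronal lineage showed no calls. The 23 immature neuron markers had a median log2 fold change of -0.04, with a summed TPM of 5435 to 7560 in Kir and 6542 to 6940 in WT. The 15 globose basal progenitor markers had a median of -0.05 and summed TPM of 808 to 1000 in Kir and 922 to 1040 in WT, and the 26 cell cycle genes a median of 0.00. Of 15 regulators of receptor expression and axons 1 was called, the cyclase Adcy3, lower in the 6-library fit, against 0.74% of all genes. Lhx2, a homeobox factor needed for receptor expression, had 448, 443 and 590 CPM in Kir and 538, 513 and 528 CPM in WT. Sustentacular markers had a median of 0.02.

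Odorant receptor transcripts were lower as a group at P5. They made up 0.2005%, 0.1826% and 0.1557% of gene counts in the 3 Kir libraries and 0.2685%, 0.2339% and 0.2188% in the 3 WT libraries, and the groups did not overlap. The exact test of 3 against 3 libraries cannot give a two-sided p below 0.1. As a share of TPM the values were 0.1541%, 0.142% and 0.1212% in Kir and 0.2163%, 0.1803% and 0.1811% in WT. Of 997 receptors tested, 875 (87.8%) were fitted below 0, against 48.7% of all genes, and the median log2 fold change was -0.44. In 308 receptors (30.9%) every Kir library lay below every WT library, against 8.84% of all genes, and in 5 (0.502%) every Kir library lay above, against 7.34%.

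The lower level was seen across the range of receptor abundance. The 332 receptors with the lowest mean CPM had a median log2 fold change of -0.52, the next 332 one of -0.47 and the 333 with the highest mean CPM one of -0.37. The 113 receptors of the class I cluster on chromosome 7, the fish-like class, had a median of -0.31, and the other 884 a median of -0.48; these medians were not tested against each other. Of the 66 receptor pseudogenes tested 45 were fitted below 0. The 11 trace amine receptors tested, which mark a separate set of sensory neurons, had a median of -0.66 with 0 calls; Taar9 had 0.473, 0.702 and 0.476 CPM in Kir and 1.73, 1.19 and 1.64 CPM in WT.

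Single receptors varied around that level. In the 47-library fit 6 of 997 were called, all lower in Kir, against 0.0853% of all genes called lower. In the 6-library fit 12 of 954 were called, all lower, against 0.74% of all genes. Olfr285 (chromosome 15, 98309203 to 98317353) had 2.91, 2.46 and 2.98 CPM in Kir and 14.4, 14.7 and 12.1 CPM in WT, a log2 fold change of -2.30 ± 0.46 (4.93-fold lower, edgeR adjusted p = 0.0222). Olfr1321 (chromosome X, 49723577 to 49735059) had 3.35, 2.70 and 1.90 CPM in Kir and 8.74, 8.56 and 6.67 CPM in WT (-1.59 ± 0.24, edgeR adjusted p = 0.000957), and Olfr523 had 5.76, 5.30 and 6.15 CPM in Kir and 18.3, 10.3 and 16.3 CPM in WT (-1.39 ± 0.26, edgeR adjusted p = 0.00899). Olfr1348, Olfr1140 and Olfr1417 were the others, the last 2 under 3 CPM in both groups. Of these 6, only Olfr1321 kept its call in the 47-library fit whichever library was left out. In the 6-library fit Olfr1321 kept it in 3 of 6 fits with a library left out (edgeR adjusted p up to 0.082). By limma on TPM Olfr1321 was not called in any setting. Limma on TPM called 0 receptors over all libraries and 4 with the 6 P5 libraries alone.

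The 5 most abundant receptors varied as well. Olfr536 averaged 28.0 CPM in Kir and 44.8 CPM in WT, and was called lower in the 6-library fit (-0.68 ± 0.12, edgeR adjusted p = 0.0429), a call kept in 1 of 6 fits with a library left out. Olfr1507 averaged 23.8 CPM in Kir and 35.4 CPM in WT, and Olfr689 averaged 10.7 CPM in Kir and 15.1 CPM in WT. Olfr15 averaged 20.8 CPM in Kir and 21.8 CPM in WT, and Olfr309 averaged 13.5 CPM in Kir and 14.2 CPM in WT, and none of these 4 was called. Of the 92 receptors with a mean of at least 5 CPM in Kir or WT, 84 (91.3%) were fitted below 0, with a median log2 fold change of -0.49. For receptors with near-identical copies the level is uncertain, since their reads may be split or dropped.

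**Figure D4:**
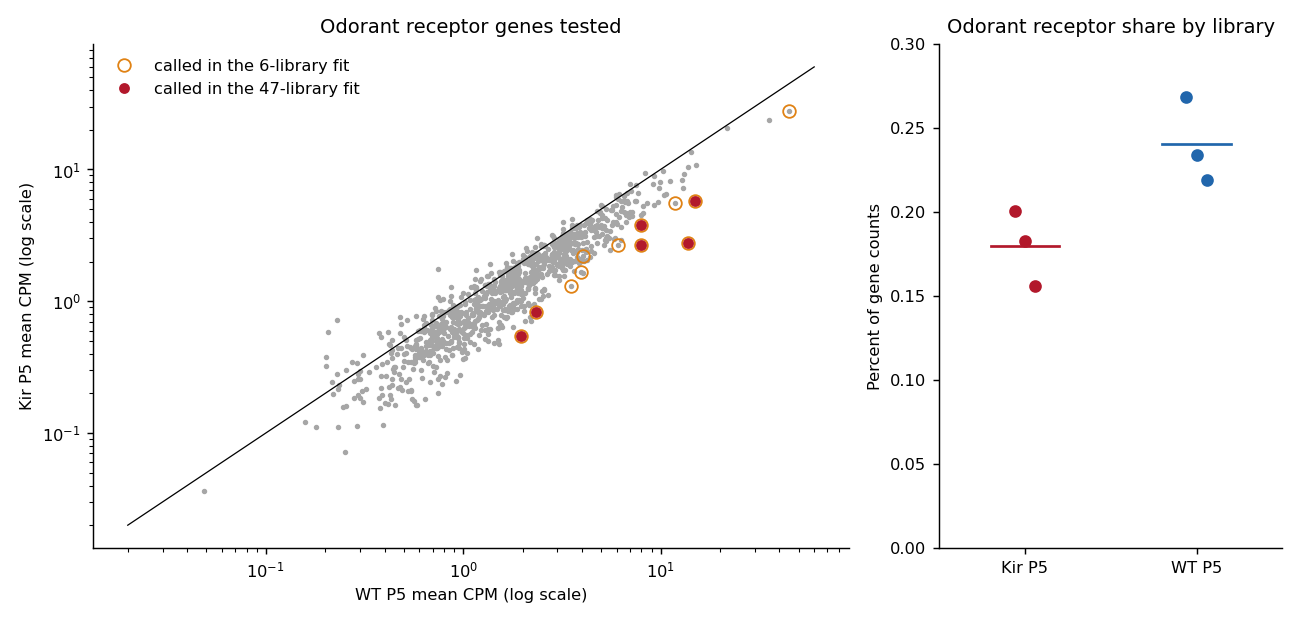
Left, mean CPM of each of 997 odorant receptor genes in Kir P5 (vertical) and WT P5 (horizontal), both on log scales, with the line of equal level; open orange circles are the 12 called in the 6-library fit and filled red points the 6 called in the 47-library fit. Right, odorant receptor share of gene counts in percent, 1 point per library with a bar at the mean; the Kir libraries lie between 0.1557% and 0.2005% and the WT libraries between 0.2188% and 0.2685%.

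Genes that interferon induces were fitted higher in Kir at P5 as a group, but no member was called in either fit, and the level differed widely between libraries of 1 genotype. Of the 34 genes 33 were fitted above 0, with a median log2 fold change of 1.57, 14 had all Kir libraries above all WT libraries (7.34% of all genes did), and 31 had an unadjusted p below 0.05 (2.02% of all genes were higher at that p). Without Kir replicate 1 the 6-library fit called 14 of the 34 higher, and without any other 1 library it called 0. The lowest adjusted p was 0.165 in the 47-library fit (Irf7) and 0.0594 in the 6-library fit (Oas2). Irf7, an interferon regulatory factor that binds DNA, had 18.1, 72.1 and 119 CPM in Kir and 6.91, 10.9 and 24.1 CPM in WT. Isg15, a ubiquitin-like modifier, had 14.9, 50.0 and 79.5 CPM in Kir and 5.05, 9.38 and 17.9 CPM in WT, and Ifit3, an RNA-binding effector, had 2.95, 18.1 and 33.6 CPM in Kir and 0.484, 0.782 and 5.19 CPM in WT. Ifit2 of the same family was the exception, at 8.96, 10.4 and 11.3 CPM in Kir and 11.2, 11.5 and 11.5 CPM in WT.

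The libraries of each genotype ordered alike across most of the list. In 33 of the 34 genes Kir replicate 3 was above replicate 2 and replicate 2 above replicate 1, and in 33 both Kir replicates 2 and 3 were above every WT library. Kir replicate 1 was above WT replicates 1 and 2 in 29 genes and below WT replicate 3 in 20. Within WT, replicate 1 was lowest in 33 genes and replicate 3 highest in 29. Replicate 3 was the library with Ddx3y in both genotypes, and the part of sex in this order was not tested. The summed TPM was 613, 1358 and 1739 in Kir and 367, 521 and 589 in WT. The median log2 fold change ran from 1.14 to 1.91 with 1 library left out. Irf7 was called with no filter on low counts (edgeR adjusted p = 0.0279) and in none of the other alternatives of the 47-library fit.

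**Figure D5:**
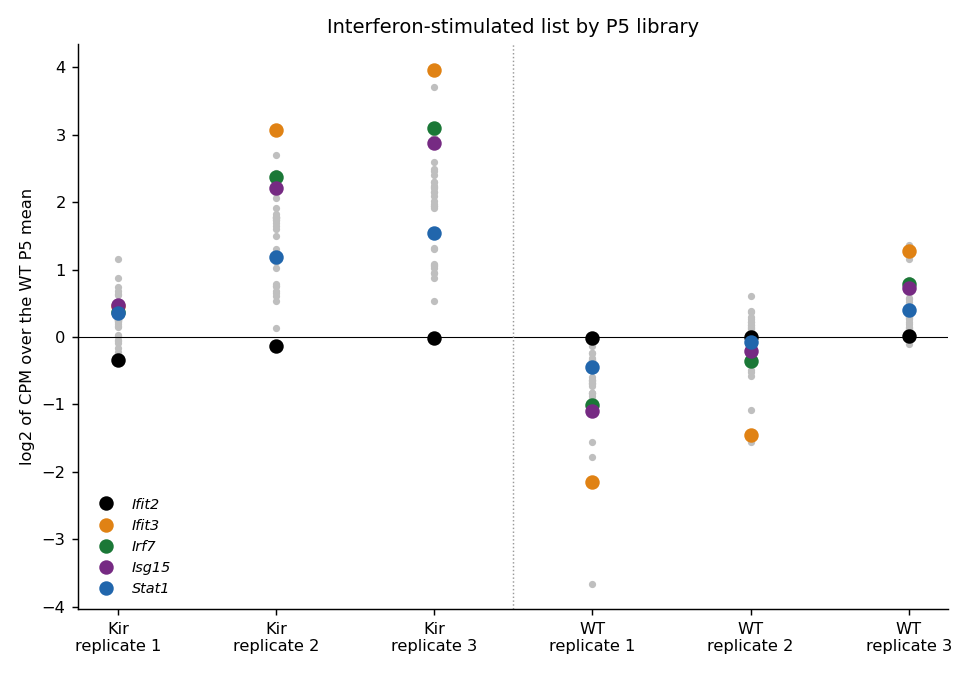
Log2 of CPM over the WT P5 mean for the 34 interferon-stimulated genes (vertical), with 1 point per gene in each of the 6 libraries (horizontal, Kir left, WT right); 5 genes are coloured and the replicate numbers are names without an order. Kir replicates 2 and 3 lie mostly above every WT library, Kir replicate 1 mostly above WT replicates 1 and 2, and Ifit2 near 0 throughout.

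Sequences of the interferon-stimulated response element are shown for 5 of these genes because the same core recurs in the list. Each line gives 30 bases read along the gene (RefSeq, GRCm38.p6). Only the first match of the core (GAAA and GAAA with 2 bases between) or its reverse complement is in capitals. In Isg15, Bst2 and Oas1a a further match overlaps the first, and its remaining letters are in lower case. The sites are at chr19:34583363-34583392 (Ifit3), chr19:34640775-34640804 (Ifit1), chr4:156200877-156200906 (Isg15), chr8:71537583-71537612 (Bst2) and chr5:120907526-120907555 (Oas1a).
Ifit3: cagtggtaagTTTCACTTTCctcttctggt
Ifit1: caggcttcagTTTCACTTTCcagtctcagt
Isg15: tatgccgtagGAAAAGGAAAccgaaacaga
Bst2: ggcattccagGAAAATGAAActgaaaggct
Oas1a: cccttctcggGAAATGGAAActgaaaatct
The core was found in the 300-base windows of 12 of the 24 listed genes with a window (50%), against 551 of 13898 tested genes (3.96%). It was in 2 of 11 windows of genes called higher in the 6-library fit and 5 of 104 of those called lower.

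The guanylate-binding, class I, macrophage and lymphoid lists had 1 call between them, in the 6-library fit. The guanylate-binding and immunity-related GTPases had 14 of 14 members fitted above 0 (median log2 fold change 1.17), and Gbp3 was called in the 6-library fit, at 6.30, 11.96 and 18.8 CPM in Kir and 2.11, 3.09 and 3.47 CPM in WT (2.09 ± 0.36, edgeR adjusted p = 0.0399; kept in 1 of 6 fits with a library left out). The 20 class I antigen presentation genes had 19 fitted above 0 (median 0.64) and 0 calls; B2m, the light chain of class I molecules, had 129, 222 and 231 CPM in Kir and 76.1, 121 and 92.8 CPM in WT. The interferon genes Ifna2, Ifna4, Ifnb1 and Ifng had no count in the 6 libraries, and the receptor chain Ifnar1 had 81.8, 78.5 and 78.9 CPM in Kir and 83.3, 76.0 and 76.3 CPM in WT. Macrophage markers were fitted above 0 for 18 of 18 genes, with summed TPM of 215 to 261 in Kir and 179 to 203 in WT, and lymphoid markers summed to 7.56 to 8.21 TPM in Kir and 5.68 to 7.09 TPM in WT. The part of macrophages and lymphoid cells in the interferon result was not tested. Several other non-neuronal lists also had most genes fitted above 0, where 48.7% of all genes were fitted below 0. These were 18 of 18 fibroblast, 13 of 14 endothelial, 12 of 13 horizontal basal and 19 of 20 Bowman's gland genes. Sustentacular (11 of 18) and keratinized epithelium genes (4 of 11) leaned less or not at all.

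Genes called higher in Kir were few. Beside Kcnj2 the 47-library fit called the processed pseudogenes Gm13328, Gm7658 and Gm13935. Gm7658 had 4.12, 4.32 and 3.05 CPM in Kir and 0.173, 0.112 and 0.0381 CPM in WT, and Gm13935 had 3.46, 2.596 and 3.05 CPM in Kir and 0.276, 0.335 and 0.267 CPM in WT. Gm13328 had 146 counts over the 3 Kir libraries and 1 over the 3 WT libraries, a ratio of 148 in CPM (exact 95% counting interval 26.1 to 5870). Processed pseudogenes share reads with their parent genes, so these levels are uncertain. In the 47-library fit Gm7658 kept its call in 1 of 6 fits with a library left out and Gm13935 in 3 of 6.

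In the 6-library fit 17 of the 22 genes called higher were protein-coding. Thbs1, the secreted matrix protein thrombospondin 1, had 352, 291 and 307 CPM in Kir and 120, 123 and 146 CPM in WT (log2 fold change 1.29 ± 0.11, edgeR adjusted p = 0.0011). Spred1, an inhibitor of Ras signalling, had 101, 95.1 and 93.9 CPM in Kir and 50.1, 52.7 and 45.8 CPM in WT (0.96 ± 0.08, edgeR adjusted p = 0.000826). Mapt, the microtubule protein tau, had 261, 242 and 302 CPM in Kir and 148, 147 and 157 CPM in WT (0.83 ± 0.09, edgeR adjusted p = 0.00523), and Rgs2, a regulator of G protein signalling, had 44.1, 45.5 and 41.9 CPM in Kir and 24.6, 25.2 and 28.4 CPM in WT (0.75 ± 0.09, edgeR adjusted p = 0.00588). In the 47-library fit their adjusted p was 0.253, 0.116, 0.714 and 0.104. Fibroblast markers, whose cells also make Thbs1, were fitted above 0 for 18 of 18 genes with 0 calls, and their summed TPM was 2079, 1919 and 1663 in Kir and 914, 1210 and 2214 in WT; their part in the result was not tested.

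Whether a genotype difference was particular to P5 was tested as the Kir minus WT difference at P5 minus the mean of that difference at the other 6 ages. For 1 of 19927 genes (0.00502%) this was called, the class I gene H2-Q6 (-3.35 ± 0.58, edgeR adjusted p = 0.0287; 0.453 without the term for the title prefix), and 235 genes (1.18%) had an unadjusted p below 0.05. S100a5 (-0.66 ± 0.30), Kirrel2 (-0.70 ± 0.37), Nphs1 (-0.20 ± 0.34), Kcng1 (-0.69 ± 0.35), Kcnmb3 (-0.61 ± 0.22) and Olfr285 (-1.58 ± 0.48) were not called, with an edgeR adjusted p of 1 each. The levels by age give the setting. S100a5 averaged 91.2 ± 50.4 CPM in Kir and 270 ± 28.2 CPM in WT at P3, 82.1 ± 3.65 CPM in Kir and 277 ± 17.8 CPM in WT at P5, and 138 ± 50.8 CPM in Kir and 257 ± 78.4 CPM in WT at P7 (SD, n = 3 each at P3 and P5, n = 4 each at P7). At P21 it averaged 822 ± 132 CPM in Kir and 824 ± 42.9 CPM in WT (SD, n = 3 each). Kirrel2 averaged 159 ± 32.4 CPM in Kir and 512 ± 24.7 CPM in WT at P5, and 633 ± 53.4 CPM in Kir and 647 ± 80.4 CPM in WT at P21 (SD, n = 3 each). The ages given for these 2 genes are a selection. Their log2 differences at P5 were -1.76 (S100a5) and -1.69 (Kirrel2), and only -0.66 and -0.70 of these went beyond the other ages. The mean difference over the other 6 ages was thus also below 0 for both genes.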

How the data were processed

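RNA of olfactory epithelium was taken with TRIzol and sequenced as polyA libraries, per the labels' protocols. The deposited tables hold whole read counts per gene, which are not normalized, and TPM per gene for 47 libraries. The submitters' processing notes name bcl2fastq 2.18, STAR 2.6.1c, RSEM and the build mm10, without saying which step made which table. No source used here gives the strand setting of the counting, so reads of overlapping and antisense genes cannot be told apart. In the 6 P5 libraries 16.38% to 18.84% of 35007435 to 39067893 reads were counted as mapping to several places, 3.43% to 3.61% as ambiguous and 4.31% to 4.58% as in no feature; these lines, 4 in all, stayed out of library sizes and tests. Of 54532 gene IDs 54495 were matched to names in GENCODE M21 (GRCm38).

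Groups came from the strain and age labels. Counts were fitted with edgeR 4.0.16 (R 4.3.3; TMM factors, filterByExpr, quasi-likelihood F test) over all 47 libraries, with group means and the title prefix as terms; the prefix is the same in all P5 libraries. Fold changes are Kir over WT, SE is the log2 fold change over the root of F, and p-values were adjusted by Benjamini-Hochberg over all genes tested. The alternatives were a fit of the 6 P5 libraries, other size factors and filters, DESeq2 1.42.0, limma 3.58.1 on log2(TPM + 1), and each P5 library left out. Each fit was tested on simulated data with 100 genes changed 2-fold and 100 changed 4-fold. The 47-library fit recovered 69 and 98 of them, with 6 false calls among 173. The 6-library fit recovered 61 and 94, with 15 false calls among 170. All simulated counts took their spread from the 47-library fit. That fit gave larger standard errors than the 6-library fit, for S100a5 0.28 against 0.08. The simulated rates therefore do not describe the 6-library fit at the spread of the P5 libraries themselves. No pair of libraries agreed within counting noise (15.36 to 32.13 times the sampling variance within a genotype). Promoter windows are RefSeq's and were searched for exact letters on both strands; the EBF and cyclic AMP motifs were added after the calls were seen.

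The comparison and the gene lists were chosen with earlier results of these data known. Genes named are the 10 largest rises and falls among called genes of at least 5 CPM in either group without overlap, up to 5 receptors each way, up to 4 called members of each list, and set controls (Kcnj2, S100a5, Nphs1, Kirrel2, Nnt, Omp, Xist and Ddx3y); list members given as not called, and genes called in the 6-library fit alone, were chosen after their values were seen. Results on some genes are not reported here.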

Additional observations from a re-analysis of the deposited data

Results flagged for a closer look

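The class I gene H2-Q6 (chromosome 17) was the 1 gene whose Kir minus WT difference at P5 differed from the mean difference at the other 6 ages. The P5 difference minus the others was -3.35 ± 0.58 on the log2 scale (edgeR adjusted p = 0.0287). At P5 H2-Q6 had 1.97, 1.37 and 2.30 CPM in Kir and 1.45, 0.893 and 3.17 CPM in WT, which overlap. At P10, P14 and P21 it averaged 10.7, 15.9 and 20.4 CPM in Kir and 0.455, 0.383 and 0.512 CPM in WT. The WT level at P5 was above the highest WT library of any other age, 0.867 CPM, in all 3 libraries. The call was lost without WT replicate 3 (-2.71, edgeR adjusted p = 0.231), without Kir replicate 1 (0.252), replicate 2 (0.521) or replicate 3 (0.152), and without the prefix term (0.453). H2-Q6 has near-identical class I neighbours that share its reads, so its level is uncertain. The cause was not tested.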

How the results depend on the processing

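The count of calls between Kir and WT at P5 was 21 in the 47-library fit, 160 with the 6 P5 libraries alone, 57 with the libraries of their title prefix, 13 without the prefix term and 79 by DESeq2. On log2(TPM + 1) limma called 5, or 66 with the 6 libraries and 9 among genes of at least 1 TPM; on log2(TPM + 0.1) it called 4. Leaving out 1 library gave 7 to 11 calls in the 47-library fit. Leaving 1 library out of the 6-library fit was an alternative added after seeing the data. It gave 108, 68 and 175 calls without Kir replicates 1, 2 and 3, and 55, 60 and 179 without WT replicates 1, 2 and 3. Other size factors and count filters gave 23 to 31. The 21 genes kept their sign in every alternative that tested them. The age contrast had 1 call, 2 without a filter, 0 without the prefix term, 5 by DESeq2 and 0 to 2 with 1 library left out. The P5 difference of H2-Q6, 0.03, was -0.10 by limma on log2(TPM + 1) and -0.077 on log2(TPM + 0.1), and ran from -0.29 to 0.67 with 1 library left out. The causes were not tested.

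No paired analysis was possible because the titles of the P5 libraries share no replicate numbers between genotypes. With 3 libraries a group, genes under about 1 CPM are measured with little precision, and changes of 2-fold or less are often not called. Counting intervals cover counting error only.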

Other observations

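Erythroid genes were fitted higher in Kir for 8 of 8 genes, with summed TPM of 2425, 3049 and 2037 in Kir and 1087, 1097 and 2052 in WT, and 0 calls. Bowman's gland markers summed to 16570, 29120 and 16870 TPM in Kir and 25480, 10140 and 16400 TPM in WT, so single libraries of both genotypes stood apart. Keratinized epithelium markers were highest in replicate 1 of each genotype, at 195 TPM in Kir and 83.1 TPM in WT.

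Of the 22 genes called higher in the 6-library fit, 6 lay on chromosome 2, where 1595 genes were tested and 17 were called lower. Over all genes of that fit 0.118% were called higher and 0.74% lower. Spred1, Fam98b, Thbs1 and Sqor lay between positions 117121374 and 122809569 (GRCm38), a stretch of 106 tested genes with a median log2 fold change of 0.02, in which Eif3j1 was called lower. In 19 of the 106 every Kir library lay above every WT library, against 7.47% of all genes of that fit. This stretch was chosen after the values were seen. The lincRNA Gm26825 had 23.8, 0.211 and 34.2 CPM in Kir and 0.242, 0.372 and 0.191 CPM in WT, and the chitinase-like gene Chil4 had 98.5, 4.39 and 0.555 CPM in Kir and 0.242, 0.856 and 0.343 CPM in WT; neither was called. The pseudogene Krt8-ps was lower in the 6-library fit, at 0.619, 0.456 and 0.476 CPM in Kir and 7.19, 8.71 and 9.34 CPM in WT (-4.01 on the log2 scale, edgeR adjusted p = 6.38e-05), and shares reads with its parent gene.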
